A study of Mus musculus with 12 samples.

Results

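A set of 10 inflammatory genes was followed across cultures and tumors of 4T1, a mouse line that models triple-negative breast cancer. The genes were Il1a, Il1b, Il1rn, Il6, Tnf, Tnfaip3, Nos2, Ptgs2, Lcn2 and Saa3, taken by symbol from the deposited count tables, which made 10 of 39017 genes. The study asked what loss of POGZ, a zinc finger protein of chromatin, does to these cancer cells, and its title concerns TGF-beta signaling and metastasis. There were 12 libraries in 4 groups of 3. The control cultures were titled VC and had the genotype label POGZ WT, and the knockout-labelled cultures had the genotype label POGZ KO. Both were 4T1 cells in DMEM with 10% FBS, lysed at 75% confluency. The control tumors and the knockout-labelled tumors carried the same 2 genotype labels. They grew for 28 days from 50k cells placed in a mammary fat pad (MFP-4) of BALB/c mice aged 8 weeks, and were flash frozen. The hosts of both tumor groups kept their own immune and stromal cells. The labels do not say whether the knockout was 1 clone or a pool, nor whether the culture replicates were grown apart, so p-values measure the spread between these samples, which may be technical.

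Interleukin-1 alpha and beta are cytokines that bind the same receptor, and the antagonist encoded by Il1rn occupies that receptor without signaling. Receptors for interleukin-1 and for tumor necrosis factor release NF-kB from its inhibitors, and NF-kB then raises the transcription of cytokines, of enzymes such as inducible nitric oxide synthase (Nos2) and cyclooxygenase 2 (Ptgs2), and of its own brake A20 (Tnfaip3). Interleukin-6, lipocalin 2 (Lcn2, an iron-siderophore binding protein) and serum amyloid A3 (Saa3, an acute phase protein) are produced downstream. In mammary tumors these genes can be expressed by the cancer cells, by neutrophils and macrophages, or by fibroblasts.

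Total counts ran from 14724518 to 21863223 in cultures, from 4712001 to 8338828 in control tumors and from 12128993 to 13043831 in knockout-labelled tumors. The level of Pogz RNA was not lower with the knockout label. Pogz was at 50.3 ± 2.03 CPM (counts scaled by the library total; SD, n = 3) in control cultures and at 68.3 ± 0.43 CPM in knockout-labelled cultures, and at 99.3 ± 11.9 against 107 ± 23.4 CPM in tumors. Counts per gene do not show whether a transcript makes protein, so the groups are named here by their labels. Whole chromosomes also differed between the culture groups. Pogz lies on chromosome 3, whose median log2 difference between knockout-labelled and control cultures was 0.33, and its own difference of 0.45 was 0.12 with the median of each chromosome taken out. The median was 0.25 over 876 genes of chromosome 2, which holds Il1a, Il1b, Il1rn and Lcn2, 0.14 on chromosome 10 (Tnfaip3), -0.12 on chromosome 1 (Ptgs2) and -0.04 on chromosome 11 (Nos2). Epithelial markers were present in all groups, at a summed level of 3674 to 4252 CPM in cultures and 1975 to 2773 CPM in tumors. Neutrophil markers summed to 1.33 CPM or less in every culture library, and macrophage and monocyte markers to 55.7 CPM or less. In tumors they summed to 76.2 to 586 CPM and 1594 to 3549 CPM. Tumor POGZ_KO_8459 stood apart in B and plasma cell markers, at 1206 CPM against 1.32 to 26.8 CPM in the other tumors. In bulk samples such as these, fewer cells of a type and less RNA per cell cannot be told apart.

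Upstream sequence was compared because several of the genes moved together between cultures and tumors. RefSeq windows on GRCm38.p6 were matched for 9 of the 10 genes (12 windows, as Il1rn had 3 start sites and Tnfaip3 had 2), and the 250 bases before each start were searched on both strands. No window was matched for Nos2, which was not searched. A kappa B consensus, the element bound by NF-kB, was found for 2 of the 9 genes (Il6 and Tnfaip3). It lay in 2 of the 12 windows, beside 7.25% of 32817 windows of all genes. The AP-1 element TGANTCA was found for 4 genes (Il1a, Il1rn, Il6 and Tnfaip3), in 4 of the 12 windows, beside 6.75% of all windows. The C/EBP element TTGCNNAA was found for 4 genes (Il6, Lcn2, Ptgs2 and Saa3), in 4 of the 12 windows, beside 9.57% of all windows. The windows of Il1b and Tnf held none of the 3. The matches are printed with up to 10 bases on either side, 5′ to 3′ in the direction of the gene, with the match in capitals. They show which of the genes share an element near the start.
Il6 kappa B, chr5:30013060-30013089, plus strand: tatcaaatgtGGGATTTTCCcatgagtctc
Tnfaip3 kappa B, far, chr10:19015516-19015545, minus strand: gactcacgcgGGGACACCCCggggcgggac
Tnfaip3 kappa B, near, chr10:19015411-19015432, minus strand: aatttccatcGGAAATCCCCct
Il1a AP-1, chr2:129309973-129309994, minus strand: cagagaagccTGACTCAgactt
Il1rn AP-1, chr2:24336709-24336735, plus strand: tctgctagacTGAGTCAcgcctctgga
Il6 AP-1, chr5:30012864-30012881, plus strand: cTGAGTCActtttaaaga
Tnfaip3 AP-1, chr10:19015530-19015556, minus strand: aatgcccaggTGACTCAcgcggggaca
Il6 C/EBP, chr5:30012976-30013003, plus strand: cgacgtcacaTTGTGCAAtcttaataag
Lcn2 C/EBP, chr2:32387938-32387965, minus strand: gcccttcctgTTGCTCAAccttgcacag
Ptgs2 C/EBP, chr1:150099952-150099979, plus strand: gctgcggttcTTGCGCAActcactgaag
Saa3 C/EBP, chr7:46715758-46715785, minus strand: gtaagtgggaTTATGCAAgatcaaacag

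The kappa B match of Il6 began 44 bases before the start site, and the nearer of the 2 in Tnfaip3 began 12 bases before it. The AP-1 match of Il1a began 12 bases before the start and that of Il1rn 141 bases before it. The matches of Tnfaip3 and Lcn2 lay inside the GENCODE M21 span of those genes, which begins farther upstream. A match is a description of the letters, and no binding was measured.

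In culture, the knockout-labelled cells had less Il1a, Il1rn, Nos2 and Ptgs2 RNA and more Tnfaip3 and Lcn2 RNA than control cells, and Il1b did not pass the test. Of the 7 genes with enough counts to test, 2 rose and 4 fell, beside 23.0% of 15705 genes called higher and 24.9% called lower across the transcriptome. The share of all genes called in culture was therefore large, and the counts are read against it. The median log2 fold change was -0.40 over the 7 genes and -0.01 over all genes tested.

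The interleukin-1 genes did not move together. Il1a (chr2:129299610-129309972, minus strand, protein coding) was at 304, 295 and 298 CPM in control cultures 1, 2 and 3 and at 161, 168 and 160 CPM in knockout-labelled cultures 1, 2 and 3. All 3 knockout-labelled cultures lay far below all 3 controls, with a spread of a few percent within each group. Il1a fell by 0.87 ± 0.04 on the log2 scale (SE; edgeR quasi-likelihood test with Benjamini-Hochberg adjustment, adjusted p = 5.90e-09), which is 1.83-fold. Il1b, its neighbour on the same strand (chr2:129364570-129371139), was at 3.27, 3.06 and 3.57 CPM in controls and at 3.19, 3.26 and 3.20 CPM in knockout-labelled cultures. The Il1b groups overlapped, at a log2 fold change of -0.03 ± 0.15 (edgeR adjusted p = 0.886). Il1rn (chr2:24336853-24351494, plus strand) was at 2.99, 3.38 and 2.38 CPM in controls and at 0.637, 0.815 and 0.457 CPM in knockout-labelled cultures. The groups did not overlap although the counts were few, 160 over the control group and 33 over the knockout-labelled group. Il1rn fell 4.67-fold, by 2.22 ± 0.25 on the log2 scale (edgeR adjusted p = 1.52e-05). It had the largest fold change of the 7 tested genes, with Nos2 close behind.

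Il1a overlaps Gm14023, annotated on the opposite strand, and whether reads were counted by strand is not given in the sources used here. Gm14023 was at 42.3 ± 2.43 CPM in control cultures and 25.0 ± 1.81 CPM in knockout-labelled cultures (SD, n = 3). Reads of the 2 genes cannot be told apart on these files, so the level of Il1a is uncertain to that extent. Il1b overlaps Il1bos on the opposite strand in the same way.

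The enzymes of the inflammatory response also fell. Nos2, which makes nitric oxide from arginine (chr11:78920787-78960254, plus strand), was at 22.8, 20.1 and 20.4 CPM in control cultures and at 4.52, 5.43 and 4.71 CPM in knockout-labelled cultures. No knockout-labelled culture came near the control range, and Nos2 fell 4.32-fold, by 2.11 ± 0.10 on the log2 scale (edgeR adjusted p = 7.16e-09). Ptgs2, which starts prostaglandin synthesis from arachidonic acid (chr1:150100031-150108227, plus strand), was at 755, 714 and 708 CPM in controls and at 548, 555 and 535 CPM in knockout-labelled cultures. The groups were narrow and apart, and Ptgs2 fell by 0.40 ± 0.04 on the log2 scale (edgeR adjusted p = 5.86e-06).

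Tnfaip3 and Lcn2 went the other way. Tnfaip3, whose product edits ubiquitin chains to end NF-kB signaling (chr10:19000910-19015657, minus strand), was at 133, 132 and 134 CPM in controls and at 173, 177 and 177 CPM in knockout-labelled cultures. It rose by 0.41 ± 0.04 on the log2 scale (edgeR adjusted p = 1.69e-06), with no overlap. Lcn2 (chr2:32384633-32388252, minus strand) was at 11.9, 9.98 and 9.51 CPM in controls and at 16.1, 16.7 and 14.3 CPM in knockout-labelled cultures. All 3 knockout-labelled values lay above all 3 control values, and Lcn2 rose by 0.59 ± 0.10 on the log2 scale (edgeR adjusted p = 3.61e-04). With the median of each chromosome taken out, the rise was 0.27 for Tnfaip3 and 0.34 for Lcn2, and all 6 calls held. The other genes moved with the settings too. Over 14 alternative fits, this one among them, the log2 fold change ran from -1.12 to -0.84 for Il1a and from -2.47 to -1.985 for Il1rn. It ran from -2.18 to -2.04 for Nos2, from -0.42 to -0.28 for Ptgs2 and from -0.28 to 0.04 for Il1b. When all 12 libraries shared 1 estimate of spread, which the tumors widen, the fall of Il1rn was the 1 call left of the 6. Across the transcriptome that fit called 1501 genes in culture, against 7523 with the cultures fitted alone.

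Il6, Tnf and Saa3 were near the limit of detection in culture and were not tested there. Il6 (chr5:30013114-30019981, plus strand) had 2 counts over the 3 control cultures and 2 over the 3 knockout-labelled cultures. Tnf (chr17:35199381-35202007, minus strand) had 3 and 2, and Saa3 (chr7:46711998-46715700, minus strand) had 4 and 8. The ratio of knockout-labelled to control cultures was 1.02 for Il6 (95% Clopper-Pearson interval 0.0739 to 14.1), 0.679 for Tnf (0.0567 to 5.93) and 2.04 for Saa3 (0.546 to 9.25). These intervals cover counting error only, and differences within them were not detectable at this depth.

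**Figure D1:**
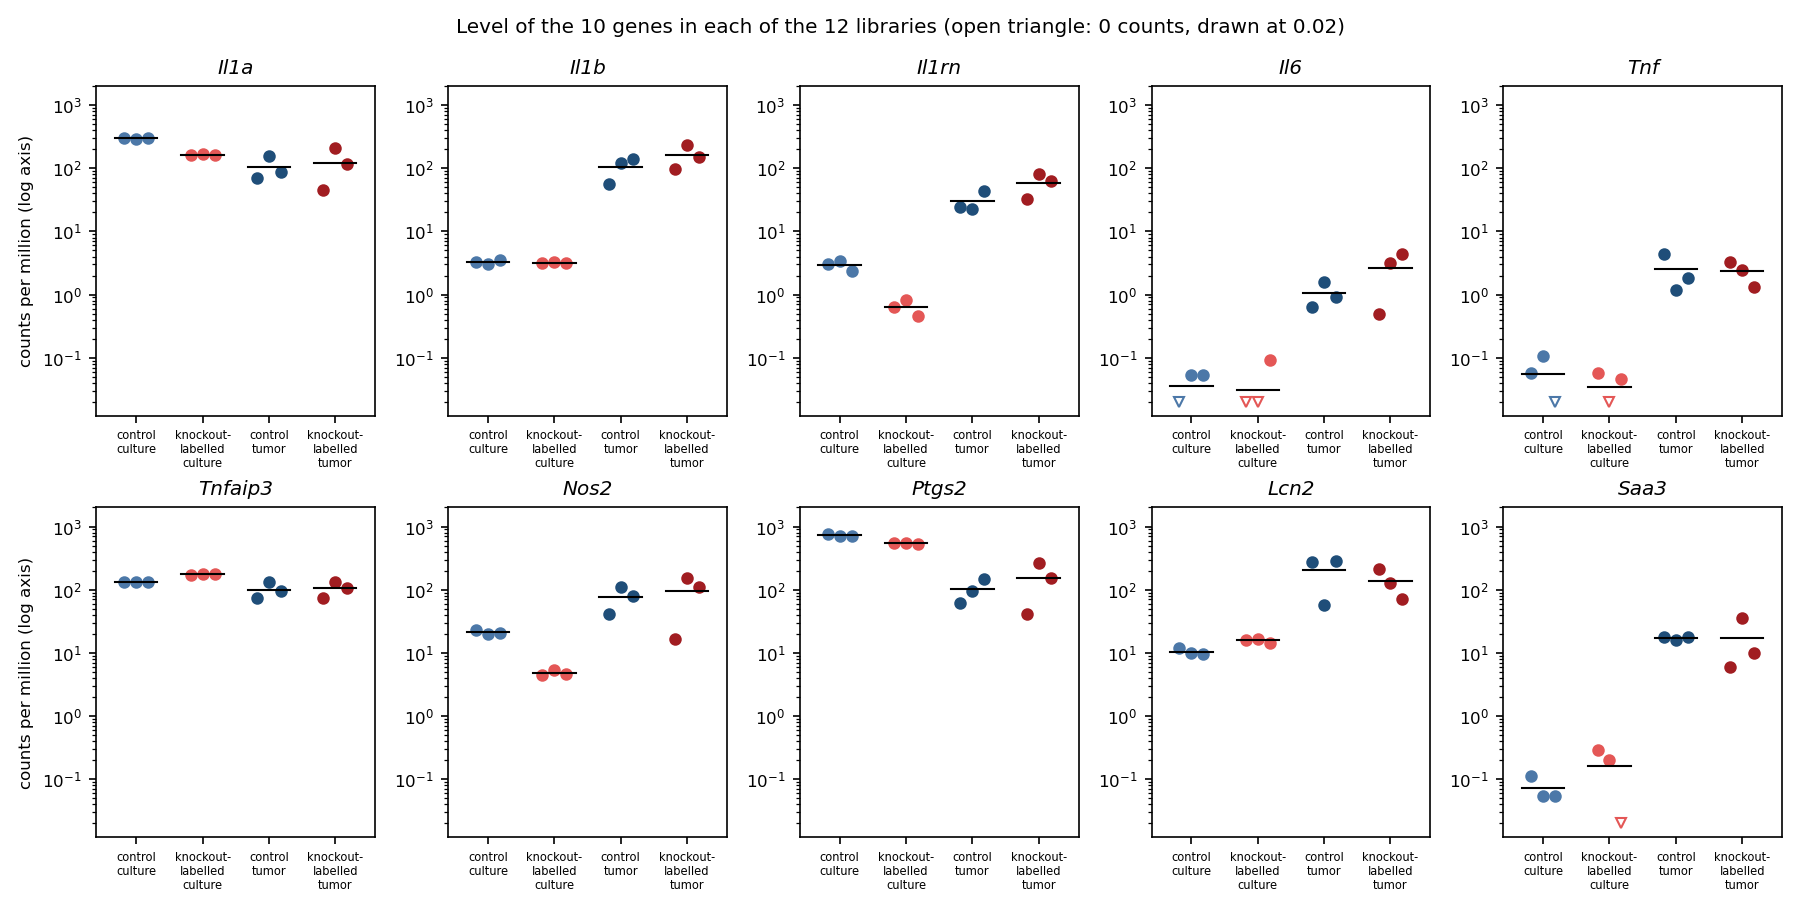
CPM of each of the 10 genes (log axis) in the 12 libraries, grouped as control cultures, knockout-labelled cultures, control tumors and knockout-labelled tumors. Each point is 1 library, the bar is the mean of 3, and an open triangle marks 0 counts. Culture groups are tight and tumor groups wide. Il1b, Il1rn, Il6, Tnf, Lcn2 and Saa3 sit higher in every tumor than in any culture. The share of all genes that separate in this way was not counted.

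The wider pathway was described from 10 lists. The counts called in culture stand beside 23.0% higher and 24.9% lower of 15705 genes. Among interleukin-1 family ligands and receptors, 12 of 17 symbols matched a gene, 8 were tested in culture, 4 rose and 2 fell. Il18, a cytokine that raises interferon gamma, rose by 2.52 ± 0.17 on the log2 scale, and Il18rap, a chain of its receptor, by 0.72 ± 0.05. Il33, an alarmin of the same family, fell by 3.50 ± 0.26, from 4.70 ± 1.02 to 0.412 ± 0.06 CPM (SD, n = 3). The family was thus not moved as a block, and its median was 0.16. Among receptors and relatives of interleukin-6 and TNF, 3 of 14 tested genes rose and 8 fell, or 3 and 4 with the median of each chromosome taken out. Lifr, the receptor chain for leukemia inhibitory factor, fell by 4.53 ± 0.39 to 0.115 CPM, and Tnfsf9, a TNF family ligand, by 1.02 ± 0.14. Il6ra, the interleukin-6 receptor alpha chain, rose by 0.78 ± 0.08.

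The named transducers and NF-kB subunits changed by 0.17 to 0.56 on the log2 scale. Of 20 tested transducers of interleukin-1 and Toll-like receptors, 4 rose, 5 fell and 11 did not pass. Ikbkb, the kinase that marks the inhibitor of NF-kB for decay, fell by 0.56 ± 0.04, and the adaptors Tab2 and Traf6 rose by 0.35 ± 0.04 and 0.33 ± 0.05. With chromosome medians taken out Traf6 was at 0.0849 and was not called (edgeR adjusted p = 0.172). Of the 5 NF-kB subunits, 3 rose and 1 fell. Nfkb1 rose by 0.36 ± 0.04 and Rel by 0.42 ± 0.07, and Nfkb2 fell by 0.17 ± 0.04. Nfkb1 was at 0.0334 with chromosome medians taken out (edgeR adjusted p = 0.583). Of 13 tested inhibitors and feedback genes besides Tnfaip3, 1 rose and 4 fell. Zc3h12a, a nuclease that degrades cytokine messages, fell by 1.20 ± 0.06, and the atypical inhibitors Nfkbiz and Nfkbid fell by 0.41 ± 0.04 and 1.19 ± 0.18. Beside 23.0% higher and 24.9% lower of 15705 genes, these few calls are not read as a shift of the list. Tnfaip3 itself rose.

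Other outputs were mixed as well. Of 18 tested further NF-kB targets, 5 rose and 8 fell. Ccl2, a monocyte chemokine, rose by 1.42 ± 0.08, while Csf3, the granulocyte growth factor, fell by 1.18 ± 0.07 and Tnfaip2 by 0.74 ± 0.04. Of 6 tested inflammasome and processing genes, 2 rose and 2 fell. The DNA sensor Aim2 rose by 1.70 ± 0.36 and the pore protein gene Gsdmd by 0.54 ± 0.12, and Capn2, a calpain, fell by 0.18 ± 0.04 (-0.0533 with chromosome medians taken out, edgeR adjusted p = 0.33). Casp1, Casp4 and Nlrp3 were among the 5 that had too few counts to test. The medians of these 2 lists were -0.07 and 0.60, beside -0.01 over all genes.

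In prostaglandin synthesis, 2 of 12 tested genes rose and 3 fell, not counting Ptgs2. Ptgs1, the constitutive cyclooxygenase, rose by 0.88 ± 0.05 and Pla2g4a, the phospholipase that frees arachidonic acid, by 0.42 ± 0.05, and Ptges, a prostaglandin E synthase, fell by 1.03 ± 0.16. So Ptgs1 and Ptgs2 changed in opposite directions in the same cultures. Around Nos2, 6 of 8 tested nitric oxide and arginine genes rose and 1 fell. Arg2, an arginase that uses the same substrate as Nos2, rose by 1.15 ± 0.14, Asl by 0.55 ± 0.06 and Ddah1 by 0.25 ± 0.04. The sign of Ddah1 turned with chromosome medians taken out (-0.0806, edgeR adjusted p = 0.16). Of 6 tested acute phase and iron-binding genes, 1 rose and 5 fell. Fth1, the ferritin heavy chain, fell by 0.72 ± 0.04, the metalloreductase gene Steap4 by 1.72 ± 0.26 and lactoferrin (Ltf) by 1.34 ± 0.29, while Lcn2 rose.

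Fewer list genes were called when tumors and cultures shared 1 estimate of spread. Calls in culture also went from 7523 to 1501 genes across the transcriptome, so the loss was not particular to the lists. With all 12 libraries in 1 fit, the genes called in culture went from 6 to 3 in the interleukin-1 family, from 11 to 3 among interleukin-6 and TNF receptors and relatives, from 9 to 2 among transducers, from 5 to 2 among inhibitors and from 13 to 3 among other NF-kB targets. They went from 7 to 2 among nitric oxide and arginine genes and from 6 to 1 among acute phase and iron-binding genes. No NF-kB subunit, inflammasome gene or prostaglandin gene was called in that fit. Of the 30 genes named from the lists, 13 were called in it, namely Il18, Il33, Lifr, Il6ra, Ikbkb, Traf6, Zc3h12a, Nfkbid, Tnfaip2, Ccl2, Asl, Arg2 and Fth1.

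In tumors, none of the 10 genes passed the test between knockout-labelled and control samples, and the groups of every gene overlapped. No gene of the transcriptome was called either (0% higher and 0% lower of 17153 by edgeR; 956 had an unadjusted p under 0.05, and DESeq2 called 66 and limma-voom 0). DESeq2 called none of the 10. Il1rn was at 24.4, 22.7 and 43.4 CPM in control tumors POGZ_VC_8447, POGZ_VC_8448 and POGZ_VC_8451 and at 32.1, 81.0 and 63.3 CPM in knockout-labelled tumors POGZ_KO_8454, POGZ_KO_8455 and POGZ_KO_8459. Its log2 fold change was 0.95 ± 0.38 (edgeR adjusted p = 0.861), and 1 control tumor lay above the lowest knockout-labelled tumor. Il1a was at 69.0, 154 and 86.1 CPM in the control tumors and at 44.4, 207 and 117 CPM in the knockout-labelled ones in the same order, a log2 fold change of 0.24 ± 0.52. The knockout-labelled tumors held both the lowest and the highest Il1a value. Il1b was at 56.9, 120 and 142 CPM against 98.2, 234 and 151 CPM, a log2 fold change of 0.59 ± 0.40.

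Nos2 was spread widely. It was at 40.7, 110 and 80.3 CPM in control tumors and at 16.5, 156 and 112 CPM in knockout-labelled tumors, so that the latter group again held both extremes. Its log2 fold change was 0.29 ± 0.70 (edgeR adjusted p = 0.955). Ptgs2 followed the same order of libraries within the knockout-labelled group, at 41.1, 269 and 155 CPM, against 62.0, 94.7 and 147 CPM in controls, with a log2 fold change of 0.60 ± 0.60. Lcn2 did not follow that order. It was at 274, 58.0 and 281 CPM in control tumors and at 212, 127 and 70.9 CPM in knockout-labelled tumors, with a log2 fold change of -0.58 ± 0.59 and with its lowest value in a control.

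The remaining 4 genes were lower or steadier. Tnfaip3 lay between 73.9 and 132 CPM in both groups, with a log2 fold change of 0.06 ± 0.27. Saa3 was at 17.6, 16.1 and 18.1 CPM in control tumors and at 6.02, 35.7 and 9.85 CPM in knockout-labelled tumors, so that the controls were close together and the knockout-labelled values lay on both sides of them. Tnf had 10 to 40 counts per tumor and ran from 1.20 to 4.46 CPM in controls and from 1.31 to 3.30 CPM in knockout-labelled tumors, with a log2 fold change of -0.02 ± 0.56. Il6 had 3 to 53 counts per tumor and was at 0.637, 1.56 and 0.930 CPM against 0.495, 3.14 and 4.35 CPM, a log2 fold change of 1.29 ± 0.75 (edgeR adjusted p = 0.861). With 3 tumors against 3, the smallest p of an exact two-sided permutation test of 1 gene is 0.1, and none of the 10 reached it.

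**Figure D2:**
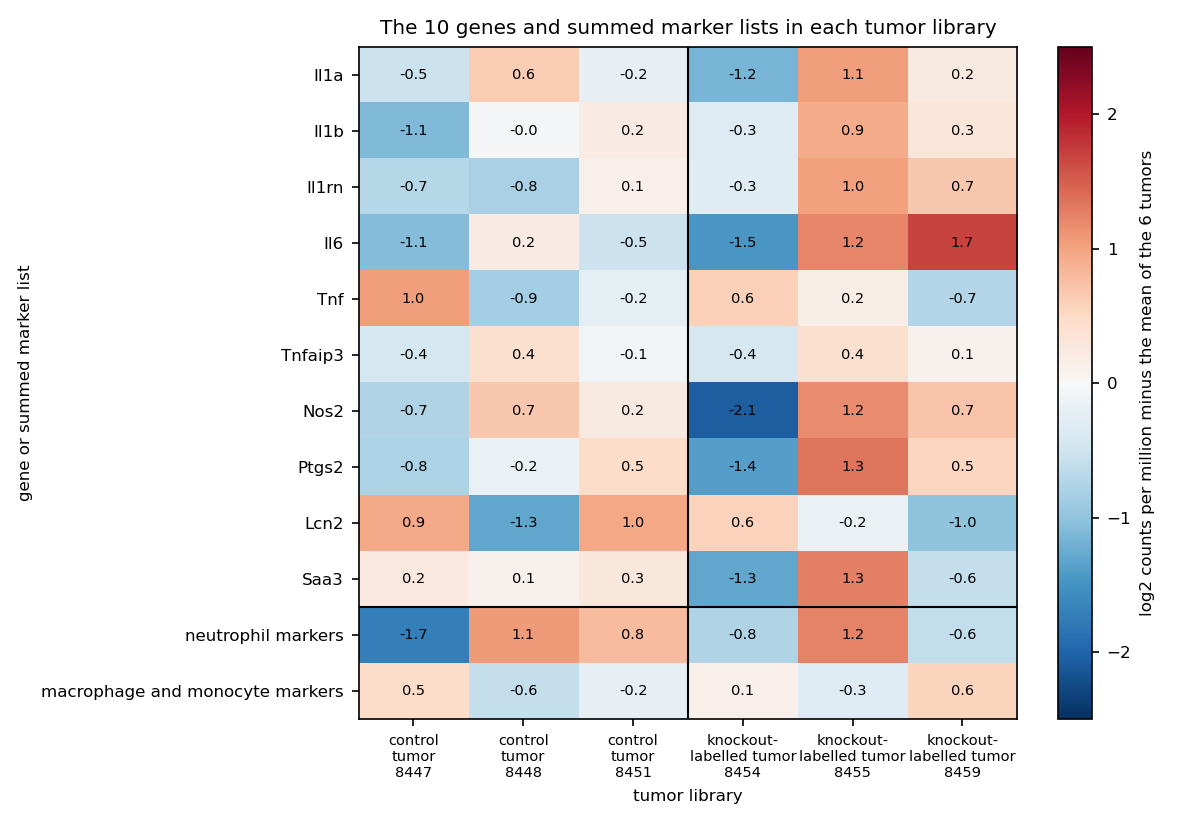
Level of each gene in each tumor library as log2 CPM minus the mean of the 6 tumors, with the summed neutrophil and macrophage marker lists below the line and control tumors on the left. Red is above and blue below the mean. Tumor POGZ_KO_8455 is highest for 6 of the 10 genes and POGZ_KO_8454 lowest for 5, and Lcn2 and Tnf show another order.

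Single tumors set these values. POGZ_KO_8455 was the highest of the 6 tumors for Il1a, Il1b, Il1rn, Nos2, Ptgs2 and Saa3, and it also had the highest neutrophil marker sum, 586 CPM. POGZ_KO_8454, of the same group, was the lowest for Il1a, Il6, Nos2, Ptgs2 and Saa3, with a neutrophil sum of 147 CPM. The neutrophil sum was lowest in control tumor POGZ_VC_8447, at 76.2 CPM, where Il1b and Tnfaip3 were lowest too. Other tumors followed this order only in part. Control tumor POGZ_VC_8448 had a neutrophil sum of 518 CPM. Its Il1a level, 154 CPM, was below only that of POGZ_KO_8455 (207 CPM). Its Tnfaip3 level was the highest, at 132.4 CPM, next to 132.2 CPM in POGZ_KO_8455. It was the lowest for Il1rn, Tnf and Lcn2. POGZ_KO_8459, at 164 CPM, was the highest for Il6. Macrophage and monocyte markers were highest in POGZ_KO_8459 (3549 CPM) and POGZ_VC_8447 (3346 CPM), where Tnf was at 1.31 and 4.46 CPM. The part of these cells in the levels was not tested. Without POGZ_KO_8455 the log2 fold change of Il1a was -0.35 and that of Nos2 -0.26, both with the sign turned. Nos2 also changed sign without POGZ_VC_8447 (-0.03).

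Across the 6 tumors, log2 levels of the other 9 genes were compared with that of Il1b. Ptgs2 had Pearson r = 0.84 (exact permutation p = 0.0319, adjusted over the 9 relations 0.163) and Spearman rho = 0.94 (exact permutation p = 0.0167, adjusted 0.131). Without the 2 tumors farthest from the median of Il1b (POGZ_VC_8447 and POGZ_KO_8455), r was 0.98 over 4 tumors. Il1rn had r = 0.82 (exact permutation p = 0.0361, adjusted 0.163) and rho = 0.83 (exact permutation p = 0.0583, adjusted 0.131), and r = 0.70 without those 2. No relation passed after adjustment, and Tnf and Lcn2 had negative coefficients, r = -0.57 and -0.43.

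The 10 pathway lists had no gene called in tumors by edgeR either, over 5 to 21 tested genes each. The most abundant of each list had log2 fold changes of -0.24 ± 0.58 for Il18rap, 0.14 ± 0.20 for Il6st (the shared receptor chain of the interleukin-6 family), 0.10 ± 0.17 for Tab2 and 0.09 ± 0.16 for Nfkb1. Cyld, a deubiquitinase that restrains NF-kB, had -0.10 ± 0.16, the adhesion receptor gene Cd44 had -0.04 ± 0.21 and Capn2 had -0.05 ± 0.21. Arg1, the arginase of macrophages, had -0.25 ± 0.48 and Fth1 had 0.54 ± 0.19. Slco2a1, a prostaglandin transporter gene, was at 326 ± 18.5 CPM in control tumors and 199.5 ± 18.4 CPM in knockout-labelled tumors (SD, n = 3). Its groups did not overlap (exact permutation p = 0.1), and its log2 fold change was -0.70 ± 0.15 (edgeR adjusted p = 0.693). DESeq2 called it lower (adjusted p = 0.00887), as did edgeR with all 12 libraries in 1 fit (adjusted p = 0.00904), which also called Ikbkb lower (-0.47, adjusted p = 0.0253). Ikbkb is named here in tumors after its values were seen.

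The effect of the label was then compared between tumors and cultures as an interaction over all 12 libraries. Of the 10 genes, 1 was called higher and none lower, beside 1.13% and 0.912% of 18419 genes. Il1rn was 3.16 ± 0.57 log2 units higher in this difference (edgeR adjusted p = 0.0153), being lower in every knockout-labelled culture than in any control culture and not in tumors. This call was lost with limma-voom (adjusted p = 0.0977), without knockout-labelled culture 1 (0.0575) or 3 (0.0678) and without control culture 2 (0.0515). The difference was 2.39 ± 0.83 for Nos2 (edgeR adjusted p = 0.185), 1.12 ± 0.58 for Il1a (0.389), 1.01 ± 0.67 for Ptgs2 (0.519) and -1.16 ± 0.71 for Lcn2 (0.471). Without tumor POGZ_KO_8454, the lowest for several of these genes, 4 were called, with adjusted p of 0.00188 for Il1rn, 0.00285 for Nos2, 0.0339 for Il1a and 0.0437 for Ptgs2. One library thus decides 3 of those calls. Without that tumor 1588 genes of the transcriptome were called (800 higher and 788 lower), against 377 with all 12 libraries. The gain in calls was thus not particular to the 10 genes.

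**Figure D3:**
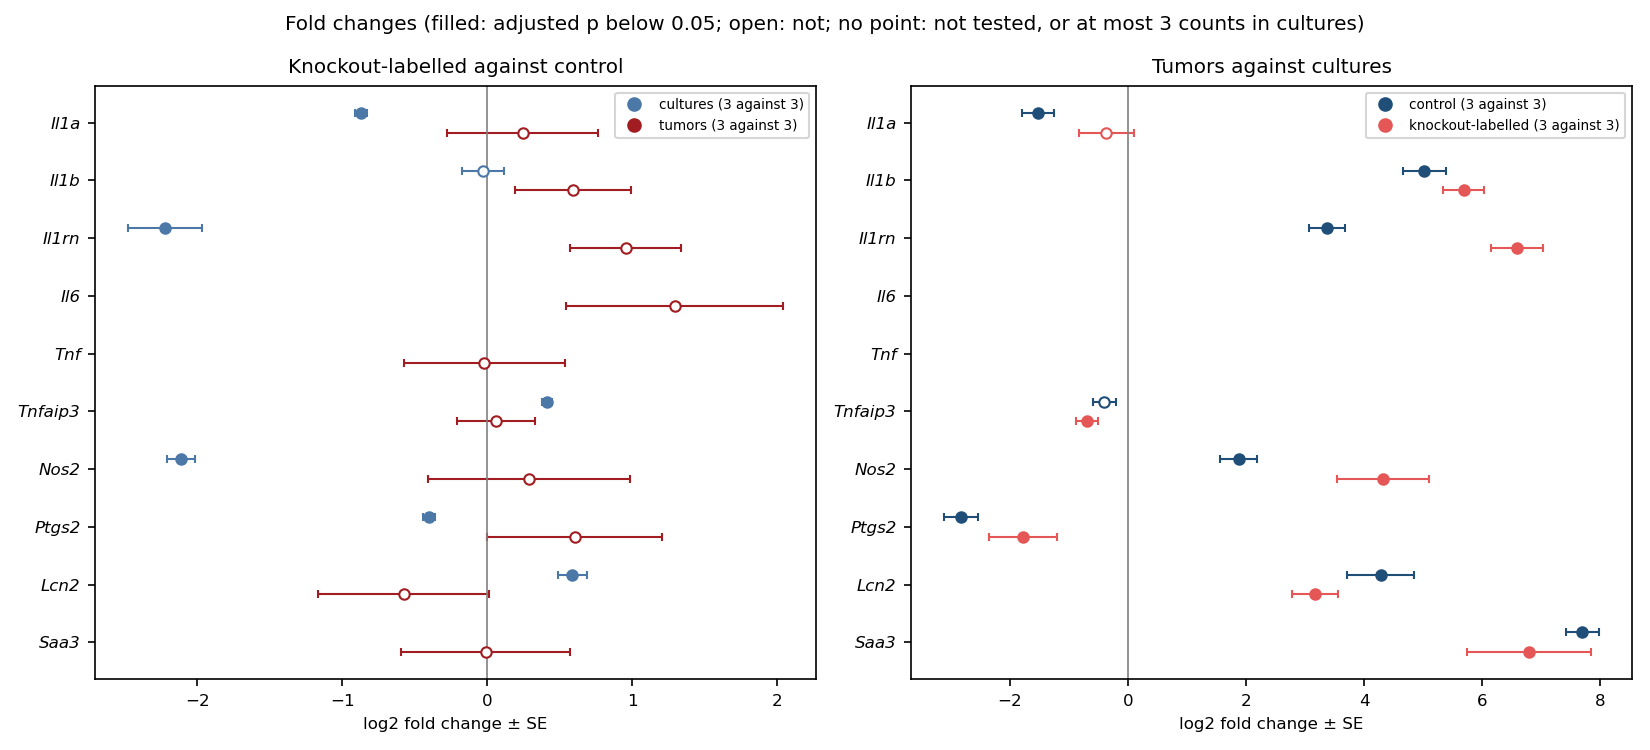
Log2 fold change with its SE for each gene, 3 libraries against 3. Left, knockout-labelled against control in cultures and in tumors; right, tumors against cultures for each label. Filled points passed an adjusted p of 0.05. In culture 6 genes pass with short error bars, and in tumors none does and the bars are wide. On the right 5 genes lie above 0 with both labels, and Il6 and Tnf are not drawn.

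More genes were called between tumors and cultures (11172 in control and 10618 in knockout-labelled samples) than between labels (7523 in cultures and 0 in tumors). This order did not hold for the size of each change. Nos2 had a log2 fold change of 1.88 between control tumors and control cultures and of -2.11 between the labels in culture. Of the 9 genes tested in control samples, 6 rose and 2 fell in tumors, beside 35.7% and 29.5% of 17123 genes. In knockout-labelled samples again 6 rose and 2 fell, beside 35.3% and 26.0% of 17311 genes. Tnf and Saa3, among the 6 that rose, had too few counts to test within cultures. They passed the filter here through their tumor counts, so a fall could not have been seen, and they enter the medians that follow. The median log2 fold change was 3.38 over the 9 genes in control samples and 4.32 in knockout-labelled samples, beside 0.07 and 0.13 over all genes. Cultures and tumors lie in separate tables, and system, library preparation and any sequencing batch cannot be told apart. Whether the 2 labels differ in this rise is the interaction given above.

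Il1b, Il1rn, Lcn2, Saa3, Tnf and Nos2 rose with both labels. Il1b rose by 5.02 ± 0.37 on the log2 scale, 32.4-fold, in control samples, and by 5.69 ± 0.35 in knockout-labelled samples. Il1rn rose by 3.38 ± 0.30 and 6.59 ± 0.45, which leaves tumor levels of 30.2 ± 11.5 and 58.8 ± 24.8 CPM (SD, n = 3). Lcn2 rose by 4.28 ± 0.56 and 3.17 ± 0.39. Every tumor was above every culture for these 3 genes, and the share of all genes that separate in this way was not counted.

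Saa3 had the widest gap, from 0.0735 ± 0.0341 to 17.3 ± 1.05 CPM in control samples (log2 fold change 7.70 ± 0.28) and from 0.164 ± 0.149 to 17.2 ± 16.2 CPM in knockout-labelled samples (6.79 ± 1.05). The count ratio was 235 (95% Clopper-Pearson interval 91.1 to 868) and 119 (59.9 to 276). Tnf had at most 3 counts in a culture group, and its count ratio was 40.0 (12.8 to 201) in control samples and 63.4 (17.0 to 532) in knockout-labelled samples (edgeR adjusted p = 5.77e-04 and 4.31e-04). Il6, which the filter left out, had ratios of 30.7 (7.58 to 268) and 72.1 (19.4 to 603). Nos2 rose by 1.88 ± 0.32 in control samples and by 4.32 ± 0.78 in knockout-labelled samples, where its culture level was lower.

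Il1a, Ptgs2 and Tnfaip3 did not rise. Ptgs2 fell by 2.83 ± 0.29 in control samples, 7.11-fold, and by 1.77 ± 0.57 in knockout-labelled samples (edgeR adjusted p = 0.0326). The second of these calls was lost without any 1 of the 3 knockout-labelled cultures or without tumor POGZ_KO_8459 (adjusted p 0.0724 to 0.0822). Il1a fell by 1.53 ± 0.27 in control samples and had a log2 fold change of -0.36 ± 0.47 in knockout-labelled samples (edgeR adjusted p = 0.524). Tnfaip3 fell by 0.70 ± 0.19 in knockout-labelled samples and had a log2 fold change of -0.40 ± 0.19 in control samples (adjusted p = 0.102). Without control tumor POGZ_VC_8448 the latter was -0.67 (adjusted p = 0.0015).

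Markers of host cells moved with this comparison. In control tumors against control cultures, all 8 tested neutrophil markers (of 15 listed) and 14 of 15 macrophage and monocyte markers rose. So did 10 of 10 tested fibroblast and pericyte markers and all 8 endothelial markers. Within cultures 0 of 15 neutrophil, 4 of 15 macrophage and monocyte, 4 of 11 fibroblast and pericyte and 1 of 8 endothelial markers were tested. Most of them thus passed the filter here through the tumors, and a fall of those could not have been seen. Ly6g, Mmp8, Cd177, Elane and Stfa2l1 had 0 counts in control cultures, as had the macrophage markers Adgre1, Ms4a7 and Ms4a6c. Their part in the rise of the cytokines was not tested. The pathway lists rose with the members in part. In control samples, 10 of 11 tested interleukin-1 family genes and 9 of 11 inflammasome genes rose, with median log2 fold changes of 2.96 and 4.89. Across the transcriptome, 35.7% of 17123 genes were called higher and 29.5% lower. Of the 5 NF-kB subunits, 2 rose and 1 fell (median 0.10), and of 21 other NF-kB targets 10 rose and 8 fell (median -0.32). Within cultures only 8 interleukin-1 family genes, 6 inflammasome genes and 18 other NF-kB targets were tested. The rest of these 3 lists passed the filter here through the tumors, so a fall of those could not have been seen, and they enter the counts and medians.

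The balance between genes was compared within each library, per kilobase of exon, so that depth cancels. In control cultures Ptgs2 (158 ± 5.61 CPM per kilobase) and Il1a (152 ± 2.45) were the most abundant of the 10, close to each other, followed by Tnfaip3 (18.4 ± 0.12), Nos2 (4.79 ± 0.33), Lcn2 (3.99 ± 0.49), Il1b (1.73 ± 0.13) and Il1rn (0.527 ± 0.09). Tnf, Saa3 and Il6 came last, at 0.0333 CPM per kilobase or less, and did not differ beyond their spread. In knockout-labelled cultures the first 3 were the same, at 119 ± 2.19, 82.5 ± 2.24 and 24.3 ± 0.29 CPM per kilobase, followed by Lcn2 (5.99 ± 0.47), Il1b (1.69 ± 0.02), Nos2 (1.11 ± 0.11) and Il1rn (0.115 ± 0.03). Nos2 thus had rank 4 in control cultures and rank 6 in knockout-labelled ones, or ranks 5 and 6 by the length of the principal transcript.

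In control tumors Lcn2 (77.9 ± 48.3 CPM per kilobase), Il1b (55.7 ± 23.1) and Il1a (52.3 ± 22.9) led and did not differ beyond their spread. Ptgs2 (22.1 ± 9.34), Nos2 (17.4 ± 7.83) and Tnfaip3 (13.9 ± 4.11) followed, again within their spread. Saa3 (6.62 ± 0.40), Il1rn (5.45 ± 2.08), Tnf (1.53 ± 1.05) and Il6 (0.429 ± 0.19) were lowest. In knockout-labelled tumors Il1b (84.5 ± 35.8), Il1a (62.3 ± 41.2) and Lcn2 (52.1 ± 27.0) led. The order depends on which transcript length is used. By the length of the principal transcript Lcn2 (149 CPM per kilobase) would lead in knockout-labelled tumors, ahead of Il1b (119) and Il1a (62.3), and Saa3 would have rank 4 in control tumors. The same 3 genes lead in each tumor group by either length.

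The ratio of Il1b to Il1a was higher in tumors than in cultures. On the log2 scale it was -6.46 ± 0.11 in control cultures and -5.61 ± 0.02 in knockout-labelled cultures (SD, n = 3), so that Il1a RNA far exceeded Il1b RNA in both. The culture groups did not overlap (difference 0.84, exact permutation p = 0.1, the smallest that 3 against 3 allows). In tumors the ratio was 0.08 ± 0.60 and 0.61 ± 0.51, close to equal levels, and the 2 groups overlapped (exact permutation p = 0.3). Every tumor lay above every culture. Control tumors POGZ_VC_8447 and POGZ_VC_8448 were still below 0, at -0.23 and -0.31. The tumor balance depends on the length used. By the principal transcript Il1b was at 78.3 and Il1a at 52.3 CPM per kilobase in control tumors, and at 119 and 62.3 in knockout-labelled tumors. The ratio of antagonist to Il1b was -1.73 ± 0.37 in control cultures and -3.91 ± 0.41 in knockout-labelled cultures, without overlap. In tumors it was -3.31 ± 0.60 and -3.00 ± 0.19, with overlap (exact permutation p = 0.5). Control cultures thus had the highest share of antagonist RNA relative to Il1b of the 4 groups. Relative to Il1a, the more abundant ligand RNA in culture, the order was another. The ratio of Il1rn to Il1a was -8.18 ± 0.26 in control cultures and -9.53 ± 0.39 in knockout-labelled cultures. It was higher in tumors, at -3.24 ± 0.92 with the control label and -2.39 ± 0.44 with the knockout label.

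**Figure D4:**
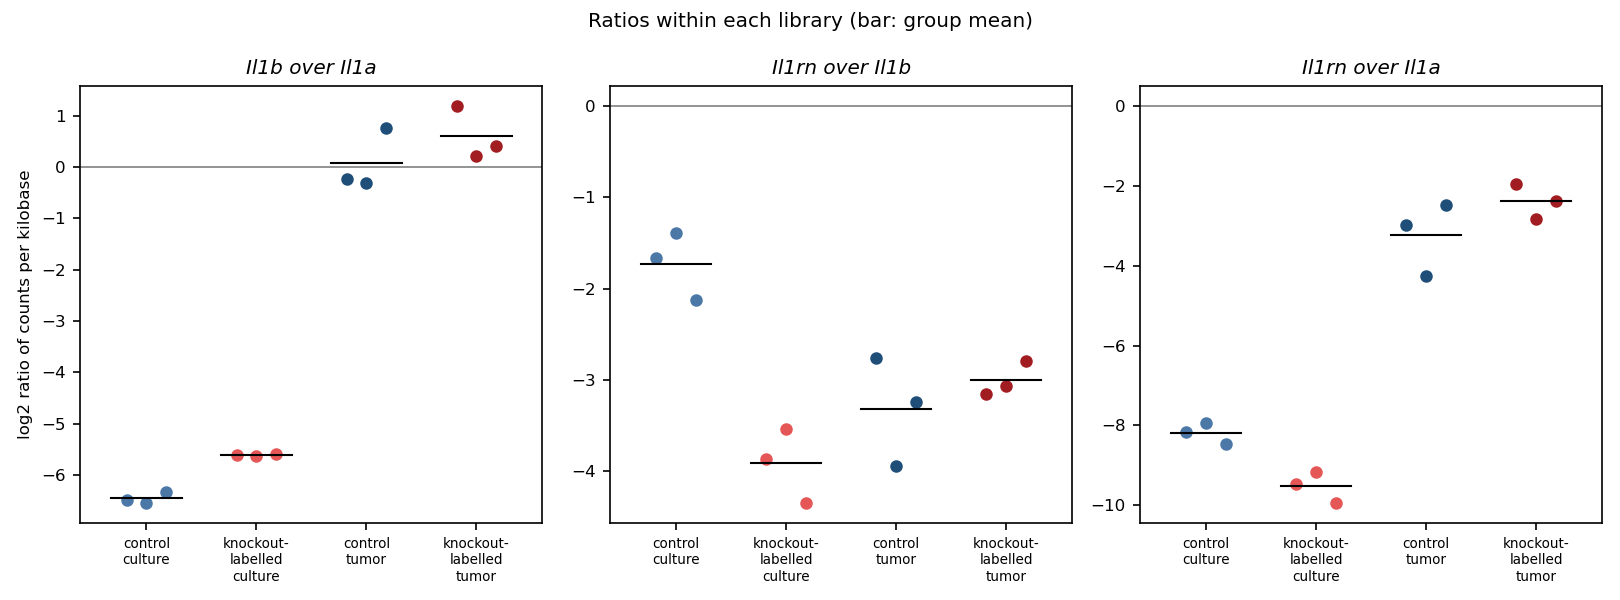
Log2 ratio of counts per kilobase within each library for Il1b over Il1a, Il1rn over Il1b and Il1rn over Il1a, by group. Each point is 1 library and the bar is the mean of 3. Il1b over Il1a moves from means of -6.46 and -5.61 in cultures to 0.08 and 0.61 in tumors, and Il1rn over Il1b is lower in knockout-labelled than in control cultures.

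For 4 genes, the 3 others of 10744 abundant genes whose log2 levels were most like theirs were listed, by Pearson r over the 12 libraries after the mean of each system was removed. The libraries share depth and group, and r is a description here. For Il1a these were Gm14023 (r = 0.99), the overlapping gene named above, Slc39a14 (0.98) and Aldoa (0.98). For Nos2 they were Ldha (0.99), Eif1ad (0.98) and Ak4 (0.97). For both sets r was 0.96 or more within cultures and within tumors alone. For Il1b they were Plscr2 (0.96), Mmp3 (0.94) and Srf (0.94), and the likeness lay in the tumors, as within cultures r was 0.66, 0.42 and -0.14. For Lcn2 they were Utp14b (0.97), St3gal2 (0.96) and Adc (0.96). No gene was on more than 1 of the 4 lists.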

How the data were processed

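RNA of 6 cultures and 6 tumors was sequenced after ribosomal RNA depletion. The authors deposited raw counts per gene in a table for each system; the tools featureCounts 1.4.4, STAR 2.3.0e and Trimmomatic 0.32 and the build mm10 are named in the submitters' processing notes. Settings, annotation release and strand are not given in the sources used here. Samples were grouped by their labels, 3 per group. Counts were tested in R 4.3.3 with edgeR 4.0.16: filterByExpr, TMM scaling, quasi-likelihood test and Benjamini-Hochberg adjustment over all genes kept, with a call at an adjusted p under 0.05. For the SE, the fold change (log2) was divided by the root of F. Each comparison was fitted on its own groups and the interaction on all 12 libraries. CPM is per total count; levels per kilobase use all GENCODE M21 exons. Python 3.11.15 with scipy 1.17.1 gave intervals and exact tests, which cover counting error or these samples alone.

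The genes, lists and tests were chosen with earlier results of these data known. Of each pathway list, up to 3 called genes with the smallest p are named, or the most abundant where none was called. Of 247 listed symbols 242 matched. Alternatives were RLE scaling, no filter, a stricter filter, DESeq2 1.42.0, limma-voom (limma 3.58.1), all 12 libraries in 1 fit, a replicate block, chromosome medians taken out and leaving out each library; the principal transcript length was chosen after seeing the data. The test was checked on simulated counts.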

Additional observations from a re-analysis of the deposited data

Results flagged for a closer look

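By the edgeR interaction test, the label had a different effect in tumors than in cultures for 1 of the 10 genes. The same held for 6 of the pathway genes named above. Across 18419 genes, 1.13% were called higher and 0.912% lower. Of the pathway genes, Il18, Il33, Fth1, Tnfaip2 and Nfkb2 had been named for a small p in culture. The culture effect is part of the interaction, so such genes are favoured to be called in it. Their number is therefore not read against the share of all genes. Only named genes were looked up, and the lists hold a further call: 2 of 21 other NF-kB targets were called higher, of which Tnfaip2 is named. Each difference below is the tumor effect minus the culture effect on the log2 scale.

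Il1rn differed by 3.16 (adjusted p = 0.0153), from -2.22 in cultures to 0.95 in tumors. Il33, another secreted member of the interleukin-1 family, differed by 4.67 (adjusted p = 0.016), from -3.50 to 1.17, and was at 0.412 ± 0.06 CPM in knockout-labelled cultures and 36.2 ± 28.0 CPM in knockout-labelled tumors (SD, n = 3). That call was lost with limma-voom (adjusted p = 0.0966) and without any 1 of the 3 knockout-labelled cultures (0.0544 to 0.0659). Il18 differed by -2.45 (adjusted p = 0.00107), from 2.52 to 0.06, with 14.6 ± 0.24 and 15.2 ± 3.11 CPM in the 2 tumor groups.

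Fth1 differed by 1.27 (adjusted p = 0.00434), from -0.72 to 0.54, and Tnfaip2 by 0.88 (adjusted p = 0.00242), from -0.74 to 0.13. Nfkb2 differed by 0.51 (adjusted p = 0.046), from -0.17 to 0.34, and Slco2a1 by -0.62 (adjusted p = 0.0259), from -0.08 to -0.70. The calls of Nfkb2 and Slco2a1 were lost in 9 and 8 of the 12 fits that left out 1 library. The call of Nfkb2 was also lost with RLE scaling, no filter, the stricter filter and limma-voom (adjusted p 0.0516 to 0.116), and that of Slco2a1 with RLE scaling (0.0501). By edgeR on the tumors alone, none of the 7 genes was called between the tumor groups. Slco2a1 was called lower in knockout-labelled tumors by DESeq2 (-0.71, adjusted p = 0.00887) and with all 12 libraries in 1 fit (-0.71, adjusted p = 0.00904).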

How the results depend on the processing

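The 6 members called in culture stayed 6 in each fit that left out 1 library and under the replicate block, RLE scaling, both filters, DESeq2, limma-voom and the chromosome medians, and 1 was called with all 12 libraries in 1 fit. That fit called 1501 genes in culture, against 7523. The replicate block called 7237; same-numbered cultures had correlated deviations of -0.16, 0.03 and 0.07, so the numbers were not taken as pairs, and not every library correlated best with its own number. In tumors 0 members were called under every alternative run, while DESeq2 called 66 genes and the fit of all 12 libraries 64. For the interaction, limma-voom called 0 members and DESeq2 953 genes against 377; leaving out 1 library gave 0 to 4 members and 147 to 1588 genes, the highest without tumor POGZ_KO_8454 and 629 without tumor POGZ_VC_8448.

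Some values that did not pass the test changed sign. Leaving out 1 library gave, between tumors, -0.35 to 0.65 for Il1a, -0.38 to 0.60 for Tnf, -0.14 to 0.31 for Tnfaip3, -0.26 to 0.78 for Nos2, -0.0495 to 1.05 for Ptgs2, -1.12 to 0.39 for Saa3, -0.0678 to 0.25 for Pogz, -0.83 to 0.36 for Il18rap, -0.0095 to 0.28 for Il6st, -6e-04 to 0.25 for Tab2, -0.21 to 0.0732 for Cd44, -0.18 to 0.21 for Capn2, -1.01 to 0.13 for Arg1, -0.0777 to 0.20 for Il18 and -0.0045 to 0.59 for the ratio of Il1rn to Il1b. It gave -0.0824 to 0.0408 for Il1b in culture, -0.33 to 1.09 for Tnf in the interaction and -0.98 to 0.0077 for Il1a between knockout-labelled tumors and cultures. Other reversals were Tnf (0.12) and Nos2 (-0.14) in tumors with limma-voom, Saa3 (0.0072) with no filter and Ddah1 in culture (-0.0806) with chromosome medians taken out. The cause was not tested. Depth limits Il6, Tnf and Saa3 in culture, where a group held 2 to 8 counts.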
